A study of Mus musculus with 12 samples.

Results

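Cytochrome P450 genes encode haem enzymes that use electrons and molecular oxygen to oxidise drugs, fatty acids, sterols, steroids and retinoids. They were followed here in the kidneys of wild-type mice and of mice with proximal tubule deletion of FAN1, a nuclease that acts on DNA interstrand crosslinks, after saline or cisplatin. A gene was taken as a member when its row of the expression table carried an NCBI Gene number of a mouse protein-coding gene whose symbol opens with Cyp and a digit. Cyp24a1, Cyp27b1, Cyp51 and the Cyp4a genes were left out by this rule, as were the 5 Cyp pseudogenes of the table. The table held 99 protein-coding Cyp genes among 27179 genes in all, of which the rule left out 11 and kept 88. TPM was above 0 in at least 1 library for 78 of them, and the other 10 were listed at 0 in all 12 libraries. Low values were filtered by requiring at least 1 TPM in at least 3 libraries, which 35 members passed. These 35 were tested, and the 43 others above 0 are described by their values only.

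In the kidney the proximal tubule is the main site of P450 expression. Its enzymes need cytochrome P450 oxidoreductase (Por) in the endoplasmic reticulum or ferredoxin (Fdx1) in mitochondria as electron donors. CYP2J and CYP2C enzymes turn arachidonic acid into epoxides, and CYP4 enzymes hydroxylate the end of fatty acid chains and of leukotrienes. CYP2A, CYP2D and CYP2E enzymes oxidise drugs and steroids, and in mice several of their genes, with Cyp4b1 and Cyp7b1, are known for higher renal expression in males, where androgens sustain it.

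Whole-kidney RNA of 12 mice was sequenced in 4 groups of 3: wild-type with saline, FAN1KO with saline, wild-type with cisplatin and FAN1KO with cisplatin. The labels give the genotypes as Wildtype and {Gamma}GT1-Cre;Fan1-/-, a Mixed strain background for all mice and an age of 8 to 12 weeks. Cisplatin, a platinum drug that crosslinks DNA, was injected into the peritoneum at 2 mg/kg each week for 5 weeks, and controls received saline. Cre was driven by the Ggt1 promoter, which acts in the proximal tubule, so that RNA of tubule cells and of cells without Cre was measured together. In such tissue fewer cells of a type and less RNA per cell cannot be told apart. The study used male and female mice and the labels give no sex. Fan1 itself did not check the labels: its TPM ran from 1.98 to 3.80 in wild-type and from 1.17 to 2.28 in FAN1KO kidneys with saline, and from 2.33 to 3.57 and from 1.55 to 3.51 with cisplatin. Each mouse is a replicate, and p-values measure the spread between these mice.

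Reads assigned to genes, inferred from the steps in TPM and not counted directly, came to 37196407 to 82935883 a library. Each group had 1 library with RNA from the Y chromosome (Uty, Kdm5d, Eif2s3y, Ddx3y), which was replicate 3 of wild-type saline, replicate 1 of FAN1KO saline, replicate 1 of wild-type cisplatin and replicate 3 of FAN1KO cisplatin. Their mean log2(TPM + 1) was 3.46 to 3.93 there and at most 0.104 in the other 8 libraries, where Xist ran from 46.6 to 70.8 TPM against at most 0.277 TPM. Defining proximal tubule markers were present in every library, with Slc34a1, the phosphate transporter of the brush border, between 837 and 3689.5 TPM. Wild-type saline replicate 2 also held adrenal cortex and fat genes, given below beside the steroid-synthesis members. The values of a group are listed in the order of replicates 1, 2 and 3.

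The members together made up 0.234 to 0.307% of all TPM in the 6 libraries without Y-linked RNA outside the FAN1KO cisplatin group, and 0.899 to 1.02% in the 3 libraries with it. In FAN1KO kidneys with cisplatin the share was 0.147% and 0.154% in the libraries without Y-linked RNA and 0.345% in the library with it. Both kinds of library thus stood lower in that group than in the others. By mean TPM over the 12 libraries 8 members were above 100, 14 between 10 and 100, 14 between 1 and 10 and 42 below 1. Cyp4b1, which hydroxylates fatty acids and activates some lung and bladder toxins, led with a mean of 1462 TPM, followed by Cyp2e1, the enzyme of ethanol and acetaminophen oxidation (594 TPM), and Cyp2j5, an arachidonic acid epoxygenase (527 TPM). Cyp2a4 (384 TPM), Cyp2a5 (274 TPM), Cyp2d26 (267 TPM), Cyp2d12 (140.4 TPM) and Cyp2j11 (137 TPM) completed the 8, and Cyp2d9 (99.8 TPM), Cyp2j13 (75.4 TPM), Cyp4f13 (46.9 TPM) and Cyp27a1 (40.3 TPM) came next. TPM is scaled to transcript length, so these levels compare genes. The order depended on the library: Cyp2j5 was above Cyp4b1 in the 6 libraries without Y-linked RNA outside the FAN1KO cisplatin group and below it in the other 6, and Cyp2a4, Cyp2a5 and Cyp2d26 overlapped over the 12 libraries.

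**Figure D1:**
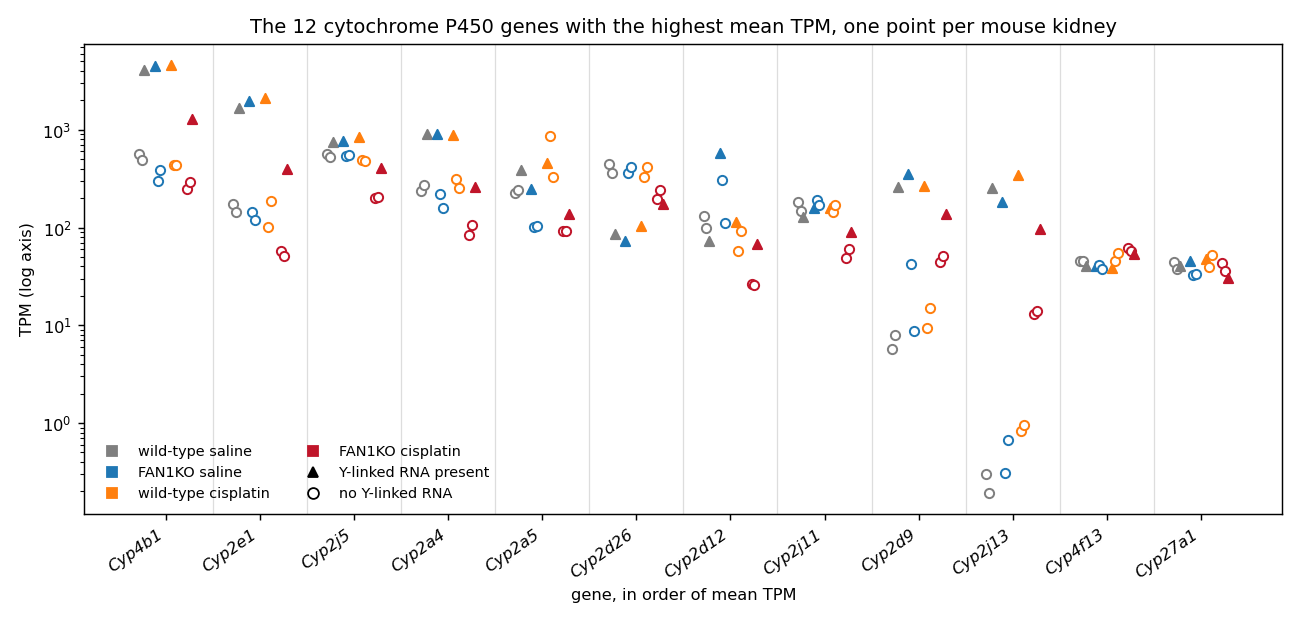
TPM (log axis) of the 12 members with the highest mean TPM in each of the 12 kidneys, coloured by group, with triangles for the 4 libraries with Y-linked RNA and circles for the other 8. Cyp4b1, Cyp2e1, Cyp2d9 and Cyp2j13 separate by Y-linked RNA in every group, while Cyp2j5 and Cyp2j11 are lowest in FAN1KO kidneys with cisplatin.

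Cyp4b1 reached 4092, 4476 and 4554 TPM in the libraries with Y-linked RNA of wild-type saline, FAN1KO saline and wild-type cisplatin, and 296 to 559 TPM in the 6 libraries of these groups without it. Cyp2e1 reached 1671 to 2109 TPM against 100.8 to 185 TPM. Cyp2j13, a CYP2J enzyme of the male mouse kidney, reached 184 to 344 TPM against 0.194 to 0.952 TPM, a ratio of means of 478. Cyp7b1, which hydroxylates oxysterols and steroids, reached 80.3 to 185 TPM against 1.102 to 4.82 TPM, and Cyp2d9, a testosterone hydroxylase, 259 to 355 TPM against 5.74 to 41.9 TPM. In these 5 genes the libraries with and without Y-linked RNA were far apart and did not overlap. In these 9 libraries 9 tested members (25.7%) were higher in each library with Y-linked RNA than in any without it and 13 (37.1%) were lower, where 4.86% and 35.3% of all tested genes were. Over all 12 libraries 6 tested members, these 5 and Cyp2d10, were higher in each library with Y-linked RNA than in any without it, where 1.2% of all tested genes were. Cyp1b1, Cyp2d26 and Cyp2c23 were lower in each, where 8.51% of all tested genes were. This is a description over libraries sorted by their Y-linked RNA and was not tested. Among libraries without Y-linked RNA only FAN1KO cisplatin replicate 1 reached 1 TPM for Cyp2d10, and only FAN1KO cisplatin replicates 1 and 2 for Cyp2j13. Both thus passed the filter through libraries with Y-linked RNA, where they were high, and their place in these counts was not independent of the split.

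Within the FAN1KO cisplatin group the ratio across the same split was smaller for these 5 genes, but it rests there on 1 library with Y-linked RNA. The ratio of the library with Y-linked RNA to the mean of the pair without it was 7.14 for Cyp2j13, 23.4 for Cyp7b1, 2.87 for Cyp2d9, 7.3 for Cyp2e1 and 4.8 for Cyp4b1, against 478, 41.8, 19.8, 13.3 and 10.1 in the other 3 groups. For Cyp7b1 a narrower split was not shown. Its 3.91, 3.64 and 88.4 TPM in FAN1KO cisplatin lay within the ranges of the other 3 groups without and with Y-linked RNA. The narrowing came from both sides in Cyp2j13. Its TPM was 12.9 and 14.0 in FAN1KO cisplatin replicates 1 and 2, where no other library without Y-linked RNA exceeded 0.952 TPM, and 96.1 in replicate 3, where no other library with it was below 184 TPM. Cyp2d9 stood at 44.2, 50.65 and 136 TPM. Replicate 3 was below the 259 TPM or more of the other libraries with Y-linked RNA. Replicates 1 and 2 were only just above FAN1KO saline replicate 2, at 41.9 TPM. Cyp4b1 and Cyp2e1 were instead low on both sides, with 247, 289 and 1286 TPM and with 57.6, 50.85 and 396 TPM. Cyp2d26, whose ratio was 0.224 in the other 3 groups, stood at 196, 242 and 176 TPM.

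**Figure D2:**
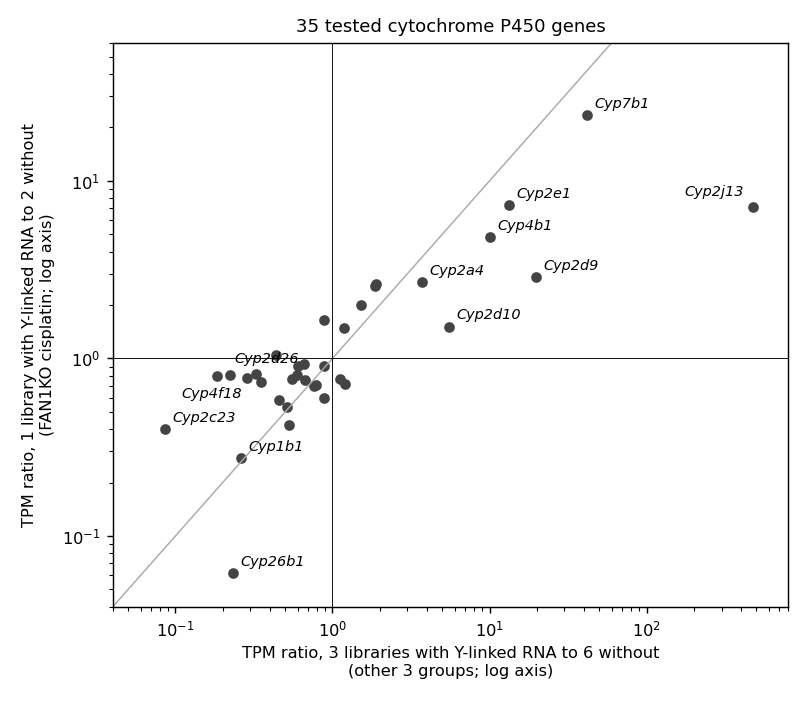
For each of the 35 tested members, the ratio of mean TPM in libraries with Y-linked RNA to that in libraries without it, in the 3 groups other than FAN1KO cisplatin (x axis, log) and within FAN1KO cisplatin (y axis, log). The grey line marks equal ratios. Cyp2j13 lies farthest below it, at 478 and 7.14.

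FAN1KO against wild-type kidneys under cisplatin asks how the kidneys that lack FAN1 in the proximal tubule differ after crosslink damage. Cyp2a5, Cyp2j11, Cyp2j5, Cyp2f2 and Cyp1a1 were lower, and Cyp4f18, Cyp2s1, Cyp4f16, Cyp4v3, Cyp4f17, Cyp2j6 and Cyp2j9 were higher. These are 5 lower and 7 higher of 35 tested members (limma on log2(TPM + 1), Benjamini-Hochberg adjusted p under 0.05), where 4.37% of all 14972 tested genes were called lower and 19.6% higher. The members' share was 14.3% lower and 20% higher, so it lay above the background for lower and near it for higher calls. Members changed by a median of 0.826 in size on the log2 scale against 0.353 for all genes, and their signed median was -0.0624 against 0.245. In 6 members every FAN1KO library lay below every wild-type library and in 8 members above it, where 8.6% and 35.7% of all genes did so (44.3% either way). Dividing each library by its median ratio lowered the median log2 fold change over all genes by 0.25 in this comparison. The source of that shift was not tested. The members then gave 5 lower and 5 higher calls, without Cyp2f2, Cyp2j6 and Cyp2j9 and with Cyp4f14. Of all tested genes 7.71% were then called lower and 9.28% higher. The members' share was then 14.3% in each direction, which rests on 5 genes each way and is not read as an excess. Of the 5 higher, Cyp4f18 passed the filter only through the FAN1KO cisplatin libraries.

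**Figure D3:**
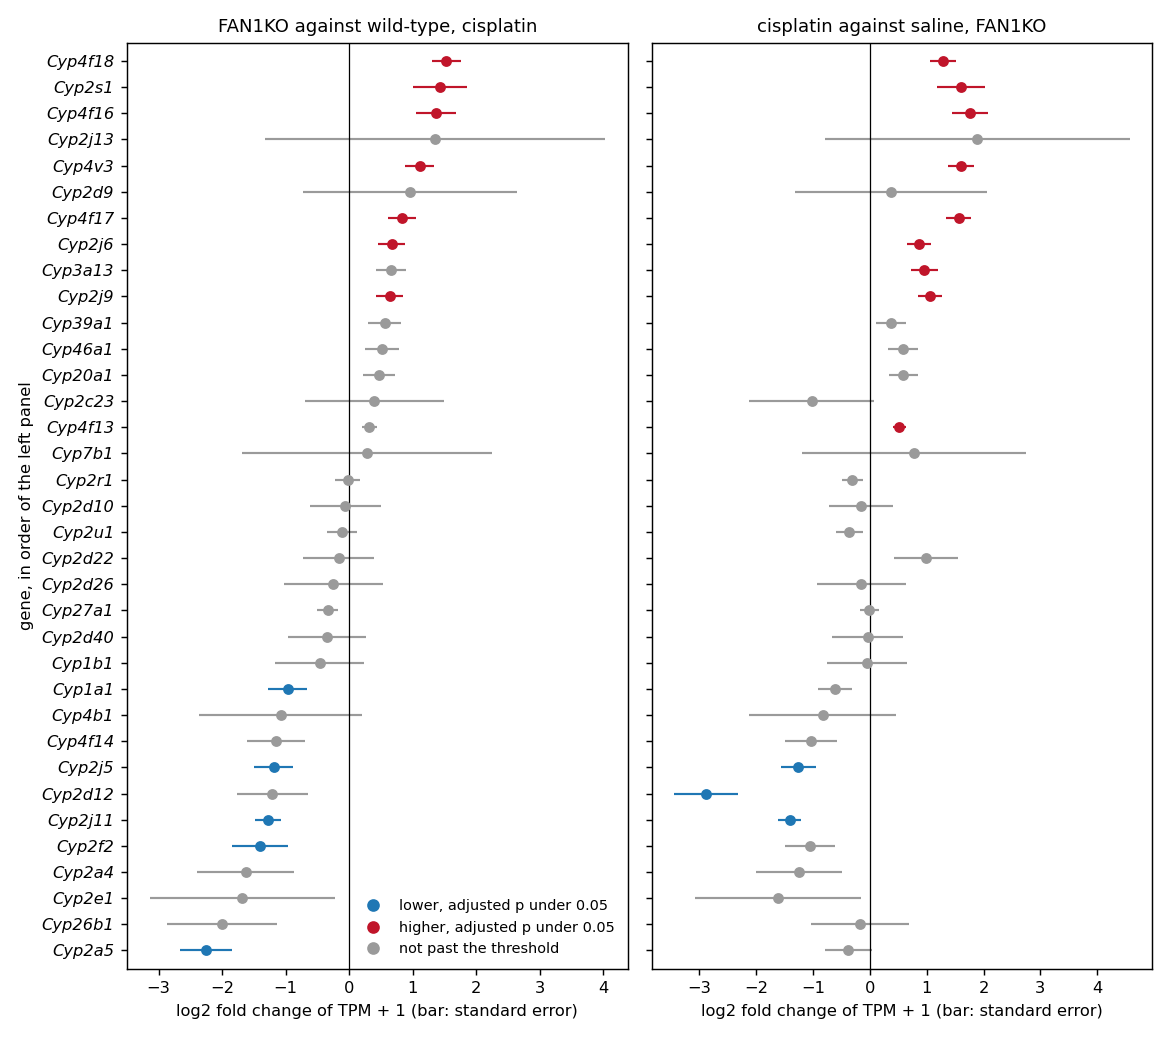
Log2 fold change of TPM + 1 (x axis) with its standard error for the 35 tested members (y axis) between FAN1KO and wild-type kidneys under cisplatin (left) and between cisplatin and saline in FAN1KO kidneys (right), 3 mice a group. Blue and red mark members past the adjusted p threshold. The widest bars belong to Cyp2j13, Cyp7b1 and Cyp2d9, which separate by Y-linked RNA.

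The CYP2J genes lie next to each other on chromosome 4 (GRCm38, 96042660 to 96664171) in the order Cyp2j13, Cyp2j12, Cyp2j11, Cyp2j8, Cyp2j6, Cyp2j9 and Cyp2j5, and neighbours moved in opposite directions. Cyp2j5 stood at 488 and 479.6 TPM in the wild-type cisplatin libraries without Y-linked RNA and 844 TPM in that with it, and at 199, 205 and 404.5 TPM in FAN1KO kidneys with cisplatin. All 3 were below the lowest wild-type value (log2 fold change -1.19, SE 0.31, adjusted p = 0.0201). Cyp2j11 stood at 157, 144 and 171 TPM in wild-type and at 48.4, 60.9 and 89.4 TPM in FAN1KO kidneys (log2 fold change -1.28, SE 0.20, adjusted p = 0.00233). Cyp2j6 and Cyp2j9, which lie between them, went the other way. Cyp2j6 rose from 19.5, 20.7 and 25.7 TPM to 40.1, 38.99 and 27.8 TPM (log2 fold change 0.67, SE 0.21, adjusted p = 0.0408), and Cyp2j9 from 12.3, 8.58 and 10.7 TPM to 21.3, 16.5 and 13.6 TPM (0.64, SE 0.21, adjusted p = 0.0443). The groups did not overlap in either gene, but in both the FAN1KO library with Y-linked RNA lay nearest to the wild-type range. No stretch of 150 bases was shared between the transcripts of these members, so no read of that length could match 2 of them. Cyp2j11 kept its call without any of the 6 mice. Cyp2j5 lost it without wild-type cisplatin replicate 1 or FAN1KO cisplatin replicate 1 or 2, Cyp2j6 without these or wild-type cisplatin replicate 2, and Cyp2j9 without any mouse but FAN1KO cisplatin replicate 3. Cyp2j8 ran from 0.148 to 1.03 TPM and Cyp2j12 reached at most 0.0984 TPM over the 12 libraries.

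The bases before the start of the neighbours that differ in direction are shown to let their letters be compared. Each line gives the 250 bases before the RefSeq start on the gene's own strand (GRCm38.p6, chromosome 4, minus strand) at chr4:96664120-96664369 for Cyp2j5, chr4:96348681-96348930 for Cyp2j11, chr4:96553652-96553901 for Cyp2j6 and chr4:96591486-96591735 for Cyp2j9, with motif matches in capitals. The table gives 1 start a gene, and for all 4 it lies inside the annotated span of the gene, farthest inside for Cyp2j6, so the span also holds bases upstream of the window's start site.
Cyp2j5: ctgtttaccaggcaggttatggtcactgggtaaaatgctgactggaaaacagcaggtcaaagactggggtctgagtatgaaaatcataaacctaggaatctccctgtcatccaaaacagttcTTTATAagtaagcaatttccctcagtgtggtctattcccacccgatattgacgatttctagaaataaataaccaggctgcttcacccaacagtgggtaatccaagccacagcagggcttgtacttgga
Cyp2j11: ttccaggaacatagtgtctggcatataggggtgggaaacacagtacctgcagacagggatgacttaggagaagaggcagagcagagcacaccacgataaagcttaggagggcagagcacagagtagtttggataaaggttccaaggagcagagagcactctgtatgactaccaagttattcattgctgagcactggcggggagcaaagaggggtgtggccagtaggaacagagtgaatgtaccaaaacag
Cyp2j6: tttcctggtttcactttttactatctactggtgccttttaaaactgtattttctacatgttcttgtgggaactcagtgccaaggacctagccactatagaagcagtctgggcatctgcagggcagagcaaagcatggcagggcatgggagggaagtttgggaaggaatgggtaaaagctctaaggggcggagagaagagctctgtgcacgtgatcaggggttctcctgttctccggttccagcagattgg
Cyp2j9: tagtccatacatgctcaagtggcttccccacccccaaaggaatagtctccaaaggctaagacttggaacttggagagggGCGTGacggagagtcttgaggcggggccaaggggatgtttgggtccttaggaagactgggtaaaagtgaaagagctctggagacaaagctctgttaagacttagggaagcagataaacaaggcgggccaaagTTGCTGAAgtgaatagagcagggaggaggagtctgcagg
Searched on both strands were the TATA box (TATAAA), a C/EBP motif (TTGCNNAA), an HNF4 motif (CAAAGTCCA), the aryl hydrocarbon receptor core (GCGTG) and the antioxidant response core (TGACNNNGC). Of 32851 windows of the same length over all genes 12.4% held the TATA box letters, 9.56% C/EBP, 0.384% HNF4, 28.2% the aryl hydrocarbon receptor core and 10.2% the antioxidant core. Cyp2j5 held TATA box letters on the other strand, Cyp2j9 the C/EBP letters and the aryl hydrocarbon receptor core, and Cyp2j6 and Cyp2j11 none of the 5. Of the 35 tested members 28 had a window, and 10 held the TATA box, 9 the aryl hydrocarbon receptor core, 5 C/EBP, 2 the antioxidant core and 0 HNF4. A match is a run of letters and not a binding site.

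**Figure D4:**
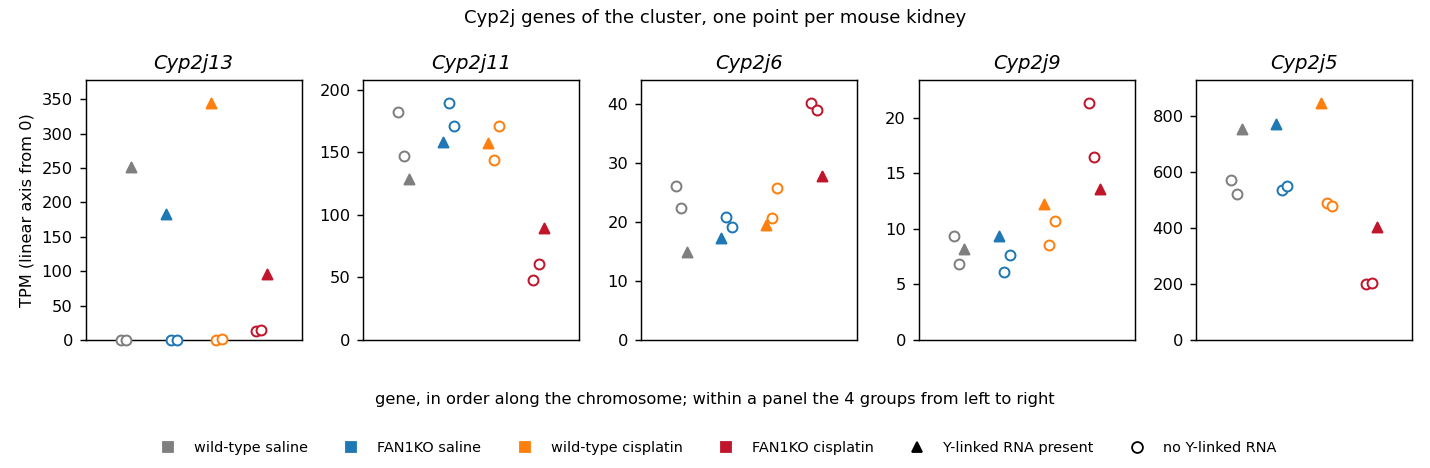
TPM (linear axes from 0) of the 5 tested Cyp2j members in each kidney, in chromosomal order from left to right, with the 4 groups side by side in each panel. Cyp2j11 and Cyp2j5 are lowest, and Cyp2j6 and Cyp2j9 highest, in FAN1KO kidneys with cisplatin, and Cyp2j13 lies between 96.1 and 344 TPM in the 4 libraries with Y-linked RNA and at or below 14.0 TPM in the others.

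Cyp2a5, the coumarin hydroxylase that responds to haem and redox stress, showed the widest called difference of the members between genotypes under cisplatin on the log2(TPM + 1) scale, though in ratios of mean TPM Cyp4f18 differed more. Its TPM was 461, 859 and 332 in wild-type and 92.4, 91.7 and 137 in FAN1KO kidneys with cisplatin, with no overlap (log2 fold change -2.26, SE 0.41, adjusted p = 0.00443). The value of 859 TPM came from wild-type cisplatin replicate 2, whose Hmox1, a haem oxygenase gene, stood at 3214 TPM against 23.9 to 386 TPM in the other 11 libraries. A link between these values was not tested. Cyp2a5 stayed past the threshold when any 1 of the 6 mice was left out, wild-type cisplatin replicate 2 included (adjusted p 0.00614 to 0.0234). Its close relative Cyp2a4 on the same chromosome, a steroid hydroxylase, stood at 891, 311 and 254 TPM in wild-type and 84.5, 107 and 258 TPM in FAN1KO kidneys (log2 fold change -1.63, SE 0.76, adjusted p = 0.143). Cyp2a4 was high in the libraries with Y-linked RNA of the other 3 groups (891 to 914 TPM against 157 to 311 TPM), whereas Cyp2a5 overlapped between them (250.3 to 461 TPM against 100.5 to 859 TPM). The transcripts of the pair share 4.22% of the 150-base stretches of Cyp2a4, so a small part of their reads could not be told apart by sequence.

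The 250 bases before the start of this pair are printed because the genes split differently by Y-linked RNA while the letters hardly differ. That split was not tested, and between genotypes under cisplatin both genes had negative log2 fold changes. Both lie on the plus strand of chromosome 7 (GRCm38.p6, chr7:26306942-26307191 for Cyp2a4 and chr7:26835089-26835338 for Cyp2a5), and capitals mark bases that differ or have no partner in the other.
Cyp2a4: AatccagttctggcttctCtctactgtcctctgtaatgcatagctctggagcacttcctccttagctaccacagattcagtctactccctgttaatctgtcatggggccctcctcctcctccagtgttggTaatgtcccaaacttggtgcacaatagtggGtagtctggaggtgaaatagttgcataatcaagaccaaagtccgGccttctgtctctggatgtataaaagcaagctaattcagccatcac
Cyp2a5: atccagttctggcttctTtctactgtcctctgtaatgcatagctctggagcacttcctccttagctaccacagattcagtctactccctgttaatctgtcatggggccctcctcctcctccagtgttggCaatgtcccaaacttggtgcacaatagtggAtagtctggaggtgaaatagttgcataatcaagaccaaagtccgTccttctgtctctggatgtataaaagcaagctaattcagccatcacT
Of 251 aligned columns 245 were identical (97.6%), 4 were substitutions and 2 had no partner. Both windows hold the letters of the C/EBP and TATA box motifs.

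The other CYP2 members on chromosome 7 split by direction as well. Cyp2f2, which activates naphthalene in airway cells, fell from 14.7, 7.79 and 8.26 TPM to 1.79, 2.64 and 5.65 TPM (log2 fold change -1.41, SE 0.44, adjusted p = 0.0404). This call was lost without any 1 of 5 of the 6 mice, all but FAN1KO cisplatin replicate 3. Cyp2s1, a P450 of epithelia outside the liver, rose from 8.38, 18.2 and 21.7 TPM to 52.4, 48.4 and 29.35 TPM (log2 fold change 1.43, SE 0.42, adjusted p = 0.0328), again without overlap. It too was lost when wild-type cisplatin replicate 1 or FAN1KO cisplatin replicate 1 or 2 was left out. Cyp2e1 was not called (log2 fold change -1.68, SE 1.46, adjusted p = 0.429), and Cyp2r1, which carries out the opening hydroxylation of vitamin D, ran from 1.00 to 1.504 TPM in wild-type and from 0.860 to 1.76 TPM in FAN1KO kidneys with cisplatin (log2 fold change -0.0249, SE 0.19).

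Among the CYP4 members outside the Cyp4a genes 4 of 7 tested rose and none was called lower, where 19.6% of all tested genes were called higher and 4.37% lower. Cyp4f18, the leukotriene hydroxylase of myeloid cells, stood at 0.0521, 0.666 and 0.113 TPM in wild-type and 2.64, 2.98 and 2.23 TPM in FAN1KO kidneys with cisplatin (log2 fold change 1.53, SE 0.23, adjusted p = 0.00205). These levels rested on 3 to 25 reads in wild-type and 84 to 114 reads in FAN1KO kidneys. Cyp4f18 reached at most 0.846 TPM outside the FAN1KO cisplatin group, so it passed the filter only through the group where it was high. Its entry into the test was thus not independent of its rise. On the scale of TPM + 1 the fold is understated for so low a gene, and the ratio of mean TPM was 9.46. Of 3 macrophage markers none was called in this comparison, and C1qa had an adjusted p of 0.0544. Their summed TPM ran from 35.4 to 87.4 in wild-type and from 79.0 to 213 in FAN1KO kidneys, with none at 0. The markers did not move together. Mean TPM in wild-type and FAN1KO kidneys was 29.8 and 103 for C1qa and 1.47 and 2.55 for Adgre1. Csf1r went the other way, at 33.5 and 26.3 TPM. Their part in the Cyp4f18 result was not tested.

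Cyp4v3, the mouse counterpart of the fatty acid hydroxylase mutated in Bietti crystalline dystrophy, rose from 4.96, 5.88 and 6.14 TPM to 15.6, 13.8 and 11.0 TPM (log2 fold change 1.11, SE 0.23, adjusted p = 0.00837). Cyp4f16 rose from 7.12, 12.9 and 14.9 TPM to 36.0, 30.4 and 25.4 TPM (1.37, SE 0.31, adjusted p = 0.0117) and Cyp4f17 from 10.6, 14.9 and 17.5 TPM to 32.3, 25.6 and 20.5 TPM (0.83, SE 0.22, adjusted p = 0.0231). In all 4 genes every FAN1KO library was above every wild-type library. Cyp4v3 stayed past the threshold without any of the 6 mice. So did Cyp4f18, which entered the test through the FAN1KO cisplatin libraries alone. Cyp4f16 lost its call without FAN1KO cisplatin replicate 1, and Cyp4f17 without wild-type cisplatin replicate 1 or FAN1KO cisplatin replicate 1 or 2. Cyp4f16 shares 1.60% of its 150-base stretches with other members, most of them Cyp4f37. Cyp4f14, a leukotriene and fatty acid hydroxylase in the same chromosome 17 cluster, lay the other way, at 1.84, 5.08 and 6.15 TPM against 1.27, 1.39 and 1.09 TPM, without overlap but not past the threshold (log2 fold change -1.15, SE 0.46, adjusted p = 0.0941). Cyp4f13 was at 38.7 to 54.3 TPM and 53.8 to 61.8 TPM (0.32, SE 0.12, adjusted p = 0.0752), and Cyp4b1 had a log2 fold change of -1.08 with an SE of 1.29. The untested Cyp4f15, Cyp4f37, Cyp4f39, Cyp4f40 and Cyp4x1 had mean TPM below 1.

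Cyp1a1, the enzyme that the aryl hydrocarbon receptor induces, fell from 1.32, 1.69 and 2.80 TPM to 0.446, 0.480 and 0.486 TPM (log2 fold change -0.97, SE 0.30, adjusted p = 0.0398). The groups were apart, on 104 to 163 reads against 26 to 30, and the call was lost without any 1 of the 6 mice (adjusted p 0.0526 to 0.12). Its 250 bases before the start (GRCm38.p6, plus strand, chr9:57697363-57697612) are printed for the receptor's core letters and the TATA box, both in capitals. This start too lies inside the annotated span of the gene.
Cyp1a1: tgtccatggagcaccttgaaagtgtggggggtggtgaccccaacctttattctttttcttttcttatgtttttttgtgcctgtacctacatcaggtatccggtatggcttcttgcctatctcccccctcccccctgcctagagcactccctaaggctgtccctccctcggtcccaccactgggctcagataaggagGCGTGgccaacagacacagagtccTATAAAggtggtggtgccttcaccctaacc
The core letters open 54 bases and the TATA box 30 bases before the start. Cyp1b1, which the same receptor induces, ran from 3.62 to 18.8 TPM in wild-type and from 2.90 to 14.6 TPM in FAN1KO kidneys with cisplatin and was not called (log2 fold change -0.46, SE 0.70). Cyp1a2, mainly a liver enzyme, reached at most 0.0477 TPM. The receptor gene Ahr ran from 1.65 to 3.24 TPM and from 2.87 to 4.12 TPM (adjusted p = 0.443).

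Of the 6 tested CYP2D members none was called under cisplatin between genotypes, where Cyp2d12 was at 113, 57.6 and 92.8 TPM in wild-type and 26.3, 25.8 and 68.1 TPM in FAN1KO kidneys (log2 fold change -1.21, SE 0.56, adjusted p = 0.138). Of the 15 CYP2C members 12 were above 0 and only Cyp2c23, an epoxygenase of the kidney, was tested, at 4.55, 14.0 and 14.05 TPM against 16.7, 18.9 and 7.13 TPM (log2 fold change 0.40, SE 1.1). The 5 CYP2B members were all above 0 in some library and all untested. Of the 9 CYP3A members 6 were above 0, and only Cyp3a13 was tested, at 0.430, 0.644 and 1.02 TPM against 2.30, 1.99 and 0.901 TPM (0.66, SE 0.23, adjusted p = 0.0588).

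None of the 4 tested sterol enzymes was called. Cyp27a1, the mitochondrial sterol hydroxylase, was at 47.4, 39.7 and 52.8 TPM in wild-type and 43.8, 35.95 and 30.6 TPM in FAN1KO kidneys with cisplatin (log2 fold change -0.34, SE 0.17, adjusted p = 0.161). Cyp39a1, an oxysterol hydroxylase, did not overlap, at 2.84, 5.34 and 5.49 TPM against 8.20, 6.83 and 6.07 TPM, but missed the threshold (0.56, SE 0.26, adjusted p = 0.134). Cyp46a1, the cholesterol hydroxylase of neurons, had 0.52 (SE 0.27, adjusted p = 0.182) and Cyp7b1 0.28 (SE 1.97). Cyp7a1, which opens bile acid synthesis in the liver, was listed at 0 throughout, and Cyp8b1 reached at most 0.294 TPM. Cyp26b1, which clears retinoic acid, ranged from 0.223 to 20.9 TPM over the 12 libraries and was not called (log2 fold change -2.0, SE 0.86, adjusted p = 0.115). Its relatives Cyp26a1 and Cyp26c1 had mean TPM of 0.616 and 0.139. Cyp20a1, a P450 without a known substrate, was at 10.9 to 20.9 TPM in wild-type and 18.4 to 26.15 TPM in FAN1KO kidneys (0.47, SE 0.25, adjusted p = 0.204).

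Steroid-synthesis members stood apart in 1 library. In wild-type saline replicate 2 Cyp21a1 was at 58.2 TPM, Cyp11b1 at 25.4 TPM, Cyp11a1, the side-chain cleavage enzyme that opens steroid synthesis, at 20.35 TPM and Cyp11b2, the aldosterone synthase, at 1.67 TPM. In the other 11 libraries these genes reached at most 0.117, 0.0372, 0.142 and 0 TPM. Cyp17a1, which makes sex steroid precursors, was at 0.299 TPM there and at 0.0161 to 0.624 TPM elsewhere, and Cyp19a1, the aromatase, was listed at 0 in every library. The same library held Star at 28.5 TPM (1.17 to 2.98 TPM elsewhere), Nr5a1 at 1.81 TPM and Mc2r at 1.51 TPM, which mark adrenal cortex. Th, Dbh and Pnmt of the adrenal medulla were at most 0.0963 TPM there. Akr1b7 (12.6 TPM), Scarb1 (9.925 TPM) and Chga (0.202 TPM) of the same marker list did not stand out in this library. They ran from 2.10 to 18.1, from 2.71 to 21.4 and from 0 to 2.06 TPM elsewhere. The fat gene Adipoq was at 28.9 TPM in it. Adipoq was also at 13.1 and 5.37 TPM in wild-type cisplatin replicates 1 and 2 and at most 2.12 TPM in the other 9 libraries. These 4 members were high in that library alone, were not tested, and entered no call.

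**Figure D5:**
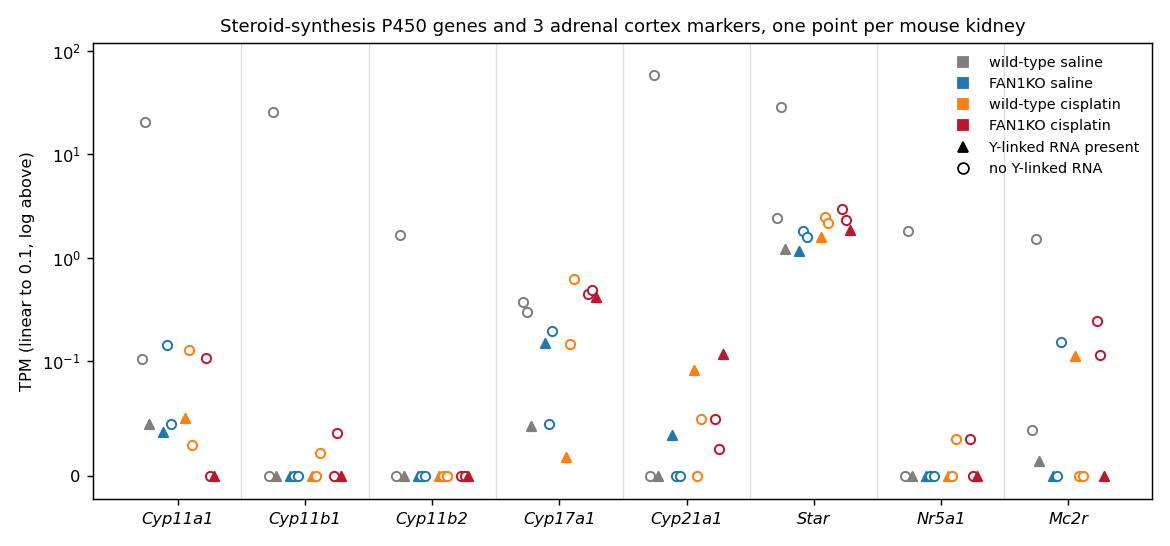
TPM of 5 steroid-synthesis members and 3 adrenal cortex markers in each kidney (y axis linear to 0.1 and log above), coloured by group. Wild-type saline replicate 2 is the high point for Cyp11a1, Cyp11b1, Cyp11b2, Cyp21a1, Star, Nr5a1 and Mc2r, and not for Cyp17a1.

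Cisplatin against saline within FAN1KO kidneys asks what differed with the drug where FAN1 was deleted in the proximal tubule. It shares the FAN1KO cisplatin libraries with the comparison above. Cyp2d12, Cyp2j11 and Cyp2j5 fell, and Cyp4f16, Cyp4v3, Cyp2s1, Cyp4f17, Cyp4f18, Cyp2j9, Cyp3a13, Cyp2j6 and Cyp4f13 rose. These 3 lower and 9 higher members of 35 stood against 4.9% lower and 34.9% higher calls among all tested genes, so that the 25.7% of members called higher lay below the background. Median-ratio scaling lowered the median log2 fold change over all genes by 0.38. The split was then 7 lower and 7 higher, with Cyp4f13 and Cyp2j9 lost and Cyp1a1, Cyp2r1, Cyp2u1 and Cyp4f14 added as lower. Of all tested genes 13.7% were then called lower and 15.6% higher. The members' share was 20% in each direction, which rests on 7 genes each way and is not read as an excess. Without overlap were 5 members lower and 11 higher, against 7.43% and 47.4% of all genes. Cyp2s1 lost its call here without FAN1KO saline replicate 1 or FAN1KO cisplatin replicate 1. The median change of the members was -0.039 against 0.369 over all genes.

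Cyp2d12 had the widest called change of this comparison on the log2(TPM + 1) scale, from 577, 309.7 and 112 TPM with saline to 26.3, 25.8 and 68.1 TPM with cisplatin (log2 fold change -2.88, SE 0.56, adjusted p = 0.00304). All 3 saline values lay above all cisplatin values, and FAN1KO saline replicates 1 and 2 were also above the 72.8 to 131 TPM of wild-type kidneys with saline. Cyp2j11 fell from 158, 189 and 171 TPM (-1.41, SE 0.20, adjusted p = 0.000675) and Cyp2j5 from 771.5, 535 and 549.9 TPM (-1.26, SE 0.31, adjusted p = 0.00934). Of the 7 tested CYP4 members outside the Cyp4a genes 5 rose, where 34.9% of all tested genes did: Cyp4f16 from 6.78, 9.195 and 8.99 TPM (1.76, SE 0.31, adjusted p = 0.00195), Cyp4v3 from 2.49, 4.59 and 4.44 TPM (1.60, SE 0.23, adjusted p = 0.000757), Cyp4f17 from 6.88, 7.00 and 10.7 TPM (1.56, SE 0.22, adjusted p = 0.000654), Cyp4f18 from 0.121, 0.566 and 0.846 TPM (1.28, SE 0.23, adjusted p = 0.00226) and Cyp4f13 from 40.1, 41.7 and 38.0 TPM (0.52, SE 0.12, adjusted p = 0.00769). Of these, Cyp4f18 entered the test through its FAN1KO cisplatin libraries alone. Cyp2s1 rose from 8.62, 14.8 and 17.9 TPM (1.60, SE 0.42, adjusted p = 0.0126). Cyp3a13 rose from 0.197, 0.5525 and 0.379 TPM, on 17 to 39 reads (0.96, SE 0.23, adjusted p = 0.00842). Only FAN1KO cisplatin replicates 1 and 2 and wild-type cisplatin replicate 3 reached 1 TPM for it. Cyp3a13 thus passed the filter only through cisplatin libraries, and its entry into the test was not independent of its rise.

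Cyp2c23 stood at 121 and 60.2 TPM in FAN1KO saline replicates 2 and 3 and at 2.21 TPM in replicate 1, the library with Y-linked RNA, against 7.94, 9.82 and 3.04 TPM in wild-type kidneys with saline. In the fit of all libraries it was not called between genotypes under saline (log2 fold change 1.98, SE 1.1, adjusted p = 0.746). It was called higher there without FAN1KO saline replicate 1 and in the 8 libraries without Y-linked RNA (3.14, SE 0.29, adjusted p = 0.00414). It was the 1 member called higher in those 8 libraries, where 0.781% of all genes were, and Cyp4f14 the 1 called lower (-1.06, SE 0.13, adjusted p = 0.0126), where 1.19% were.

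Between genotypes under saline none of the 35 members was called by limma, where 0.768% of all tested genes were called, and 2 members had an unadjusted p under 0.05. These were Cyp2a5 (228, 242 and 385 TPM against 250.3, 100.5 and 103 TPM, log2 fold change -1.01, adjusted p = 0.517) and Cyp2d12 (1.46, adjusted p = 0.455). Cyp4f17 was the member without overlap (7.83% of all genes were lower without overlap), at 12.2, 11.3 and 11.4 TPM in wild-type and 6.88, 7.00 and 10.7 TPM in FAN1KO kidneys. In wild-type kidneys cisplatin called none of the 35, where 0.0601% of all genes were called, and none had an unadjusted p under 0.05. Cyp3a13 was the member without overlap there (5.2% of all genes were higher without overlap), at 0.328, 0.4296 and 0.257 TPM with saline and 0.4303, 0.644 and 1.02 TPM with cisplatin. It had passed the filter only through cisplatin libraries. With voom on recovered reads the count was 0 in both comparisons as well.

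The interaction compares the response to cisplatin between genotypes directly. It was called lower for Cyp2j11 (log2 -1.47, SE 0.28, adjusted p = 0.0201) and higher for Cyp4f17 (1.31, SE 0.31, adjusted p = 0.039), where 1.02% of all tested genes were called lower and 5.22% higher. In Cyp2j11 the wild-type means were 153 ± 27.2 and 157 ± 13.7 TPM (SD) with saline and cisplatin, and the FAN1KO means 173 ± 15.5 and 66.2 ± 21.02 TPM. In Cyp4f17 they were 11.6 ± 0.529 and 14.3 ± 3.49 TPM, and 8.20 ± 2.19 and 26.1 ± 5.95 TPM. Cyp2j11 lost the call without FAN1KO cisplatin replicate 2. Cyp4f17 lost it without any 1 of 9 mice, in each case with the same sign. For the other 33 tested members a response that differs between genotypes was not shown, and 10 of the 35 had an unadjusted p under 0.05.

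Since 1 mouse in each group differed from the others in Y-linked RNA, the comparisons were repeated in the 8 libraries without it, 2 a group, a choice made after seeing the data. Between genotypes under cisplatin 11 members were then lower and 11 higher, where 7.76% and 28.9% of all genes were. All 12 calls of the full fit were among them. Added as lower were Cyp4f14 (-1.50, SE 0.13, adjusted p = 0.000605), Cyp2a4 (-1.55, SE 0.20, adjusted p = 0.00198), Cyp2e1 (-1.32, SE 0.26, adjusted p = 0.00911), Cyp4b1 (-0.70, SE 0.15, adjusted p = 0.0114), Cyp2d26 (-0.76) and Cyp2d12 (-1.45). Added as higher were Cyp2j13 (2.93, SE 0.18, adjusted p = 0.000168), Cyp2d9 (1.91, SE 0.61, adjusted p = 0.0441), Cyp3a13 (0.78) and Cyp46a1 (0.56). The library with Y-linked RNA went the other way for Cyp2j13, with a difference of -1.83 between FAN1KO and wild-type, for Cyp2d9 (-0.95) and for Cyp2d26 (0.76), which rest on 1 mouse each. With cisplatin in FAN1KO kidneys 10 members were lower and 13 higher in these libraries, where 8.39% and 44.4% of all genes were. In their interaction 4 members were called lower (2.9% of all genes) and 8 higher (13.4%), among them Cyp2j5 (-1.25, adjusted p = 0.00356) and Cyp2j13 (2.69, adjusted p = 0.0032).

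Of 9 redox partners and haem genes Por and Fdx1 were lower in FAN1KO kidneys under cisplatin: Por, at 288, 269 and 283 TPM against 220.1, 201 and 227 TPM, by -0.37 (SE 0.08, adjusted p = 0.0111) and Fdx1, at 176, 131 and 145 TPM against 106, 115 and 110.4 TPM, by -0.44 (adjusted p = 0.04). Both were called lower with cisplatin in FAN1KO kidneys too. Cyb5r3, which reduces a cytochrome of the endoplasmic reticulum, was lower in FAN1KO kidneys under saline (-0.96, adjusted p = 0.0231) and rose with cisplatin in them (0.93, adjusted p = 0.00176). Among the tested nuclear receptors and sensors reported here the hepatocyte nuclear factor Hnf4a (-0.52, adjusted p = 0.0201) and the oxysterol receptor Nr1h3 (-0.55, adjusted p = 0.0122) were lower and none was higher between genotypes under cisplatin. Of 9 proximal tubule markers 5 were called lower in this comparison, where 4.37% of all tested genes were. The summed TPM of the 9, most of it Kap in wild-type, was 15385 to 76019.8 in wild-type and 2007 to 16569 in FAN1KO kidneys with cisplatin, with none at 0. Slc34a1 had a log2 fold change of -1.17 and Lrp2, the megalin gene, -1.44. Not called were Slc5a2 (-0.34, adjusted p = 0.219), Slc5a12 (-0.58, adjusted p = 0.345), Slc7a13 (-1.46, adjusted p = 0.744) and Kap (-3.63, adjusted p = 0.0648). All 3 red cell genes of the marker list were lower as well. Their part in the members' results was not tested.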

How the data were processed

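RNA of 12 whole mouse kidneys was sequenced as 2 x 150 base reads. The authors deposited 1 table of TPM (reads per transcript length, scaled to a fixed total) for 27179 genes by NCBI Gene number. The submitters' processing notes name mm10 and limma without a role, and the aligner and counter are not given in the sources used here. Of the gene numbers 25275 were named through a RefSeq table of the same build (GRCm38.p6). All per-sample columns were used (0 left out). TPM summed to 1000000 in each library, and whole reads were recovered from the TPM steps for 100% of the 22557 genes above 0 (tolerance 0.05 reads), 37196407 to 82935883 a library. For a gene seen in few libraries such reads are the smallest whole numbers that match.

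Values were tested with limma 3.58.1 in R 4.3.3 on log2(TPM + 1) as 4 group means over 12 libraries with a mean-variance trend, for 14972 genes with at least 1 TPM in at least 3 libraries, with Benjamini-Hochberg adjustment at 0.05 over all of them. Fold changes are on the log2(TPM + 1) scale and understate low genes. An exact permutation test of 3 against 3 mice cannot go below 0.1. On simulated data with known changes the fit was checked. Same-numbered mice were not treated as pairs: their deviations correlated by -0.47, 0.13 and -0.39 between genotypes under cisplatin. The members and lists were chosen with earlier results of these data known. Named were the members called in any of 5 comparisons (up to 15 a direction), the 12 with the highest mean TPM, and members fixed by role. Genes named beyond these were chosen after their values were seen. Alternatives were another pseudocount (0.1), no filter, only the libraries compared, median-ratio scaling, no trend, the replicate number as a block, Y-linked RNA as a covariate, each mouse left out and a fold of at least 2. Voom on recovered reads and the 8 libraries without Y-linked RNA were added after seeing the data. Motifs were searched in RefSeq promoter windows, which 72 of the 88 members had. Some genes of the nuclear receptor list are not reported here.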

Additional observations from a re-analysis of the deposited data

Results flagged for a closer look

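The response to cisplatin differed between genotypes for Cyp2j11, by -1.47 on the log2(TPM + 1) scale (SE 0.28, limma adjusted p = 0.0201): it fell in FAN1KO kidneys, from 173 to 66.2 TPM on average, and was 153 and 157 TPM in wild-type kidneys. All 3 FAN1KO cisplatin libraries lay below the other 9. For Cyp4f17 the responses differed by 1.31 (SE 0.31, adjusted p = 0.039), with means of 8.20 and 26.1 TPM in FAN1KO and 11.6 and 14.3 TPM in wild-type kidneys. All 3 FAN1KO cisplatin libraries lay above the other 9.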

How the results depend on the processing

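No member's call reversed under any alternative. Of 26 called values, 13 stayed past the adjusted p threshold in every alternative fit run, and over these fits 339 values stayed past it and 61 did not. Asking for a fold of at least 2 as well was applied to the counts alone and left 8 members between genotypes under cisplatin, 9 for cisplatin in FAN1KO kidneys and 2 for the interaction. Between genotypes under cisplatin 12 members were called. The count was 7 in a fit of only the 6 libraries compared, 21 with Y-linked RNA as a covariate, 22 in the 8 libraries without it and 4 to 12 with each mouse left out. It was lowest without FAN1KO cisplatin replicate 1 (4), and 5 without wild-type cisplatin replicate 1 or FAN1KO cisplatin replicate 2. For cisplatin in FAN1KO kidneys (12) the counts were 22 with the covariate, 23 in the 8 libraries and 11 to 14 with each mouse left out. Under saline (0) 2 members were called in the 8 libraries and 0 to 1 with each mouse left out. For cisplatin in wild-type kidneys the count was 0 throughout. For the interaction (2) it was 16 with the covariate, 12 in the 8 libraries and 0 to 5 with each mouse left out. With the replicate number as a block the interaction count was 1, which ended the Cyp4f17 call, and the call of Cyp1a1 and of Cyp2j6 between genotypes under cisplatin ended too. The shared number marked no known pairing. The share of all tested genes called rose too, to 48.9%, 61.1% and 31.6% with the covariate and 36.7%, 52.8% and 16.3% in the 8 libraries for genotypes under cisplatin, cisplatin in FAN1KO kidneys and the interaction. The cause of these changes was not tested. Members below 1 TPM rest on few reads, and 43 of the 78 members above 0 were not tested.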

Other observations

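Genes that handle epoxides and retinoids beside the P450 enzymes are given here for cisplatin in FAN1KO kidneys. Of 8 tested epoxide and retinoid genes 3 rose and none fell, where 34.9% of all tested genes rose and 4.9% fell. As a set they thus lay near the background. Ephx1, the microsomal epoxide hydrolase, stood at 21.4, 52.2 and 45.1 TPM with saline and at 524, 547 and 312 TPM with cisplatin (log2 fold change 3.56, limma adjusted p = 0.00157). In wild-type kidneys it was at 46.7, 48.6 and 18.9 TPM with saline and at 61.9, 221 and 351 TPM with cisplatin. Aldh1a1, which makes retinoic acid, rose from 24.4, 19.7 and 12.3 TPM to 130.3, 163 and 175 TPM (3.03, adjusted p = 0.000612), and Stra6, the retinol receptor, from 0.348, 1.30 and 3.87 TPM to 8.40, 6.72 and 12.0 TPM (1.99, adjusted p = 0.00897). Ephx2, the soluble epoxide hydrolase that acts on CYP2J products, was not called (-0.61, adjusted p = 0.352), and its TPM was 377, 389.6 and 437.5 in the libraries with Y-linked RNA of the other 3 groups and 198 in that of FAN1KO kidneys with cisplatin.

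Among untested members Cyp2b10 was at 0.768 TPM in FAN1KO saline replicate 1 and 0.337 TPM in FAN1KO cisplatin replicate 3, both with Y-linked RNA, and at most 0.0213 TPM elsewhere. Cyp2c68 reached 1.21 TPM in FAN1KO cisplatin replicate 2 and 0.432 TPM at most in the others. These values carry no test.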
